A study of Mus musculus with 4 samples.

Results

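The replication-dependent histone genes were described in single-cell RNA libraries of mouse gingiva, the gum around the teeth, from 4 groups. The members were all 67 gene symbols that begin with Hist1h, Hist2h, Hist3h or Hist4h, of 32245 symbols in the count tables, with 6 in class H1, 18 in H2a, 18 in H2b, 12 in H3 and 13 in H4. The groups were named by the labels as a healthy sample, metformin treatment, a disease sample, and a disease sample treated with metformin, and each was 1 library of dissociated maxillary gingiva. Metformin is a glucose-lowering drug, and the study asked about its use in preventing periodontal disease. Strain, age, the number of mice in a library, the disease model and the dose are not in the labels. With 1 library in a group there was no replicate check: intervals are 95% intervals of counting error only, they treat UMIs (unique molecular identifiers, 1 per captured RNA molecule) as independent, and no difference between groups was tested.

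Histones are the proteins around which DNA is wound. H2a, H2b, H3 and H4 form the core particle and H1 binds the linker DNA between particles. The replication-dependent genes lie in clusters, are transcribed mainly in S phase, when new DNA must be packed, and give short mRNAs that end in a stem-loop bound by the protein SLBP in place of a poly(A) tail. Some of them, among them Hist1h1c, Hist1h2bc and Hist2h2be, are known to give polyadenylated RNA as well. The labels state that poly(A) RNA was measured, so the counts here are of RNA that such a library can capture, and levels of different members are not set against each other as amounts of histone mRNA.

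The members lay on 4 chromosomes of GRCm38, 54 of them on chromosome 13 between 21715763 and 23934851, 10 on chromosome 3, 2 on chromosome 11 and 1 on chromosome 6. The stem-loop was searched for in annotated 3′ UTRs by the stem-loop consensus of histone mRNAs, 16 bases long with some positions left free, on the transcribed strand. It was found in 46 of 67 members and in 86 of 21901 protein-coding genes (0.393%), 40 of which were not members. The sites of members that carry the results below are shown from 5′ to 3′, with the stem-loop in capitals and 5 flanking bases on each side in lower case.
Hist1h1e: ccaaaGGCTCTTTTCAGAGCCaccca
Hist1h1c: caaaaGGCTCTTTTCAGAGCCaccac
Hist1h2ae: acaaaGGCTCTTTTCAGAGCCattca
Hist2h2ac: aaaaaGGCTCTTTTTAGAGCCaccaa
Hist1h2be: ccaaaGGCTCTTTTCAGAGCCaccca
Hist1h3c: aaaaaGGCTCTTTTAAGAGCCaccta
Hist2h3c1: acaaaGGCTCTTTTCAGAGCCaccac
Hist1h4d: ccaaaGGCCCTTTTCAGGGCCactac
Hist1h4i: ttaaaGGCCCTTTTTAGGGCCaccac
Hist2h4: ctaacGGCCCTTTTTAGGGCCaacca
The capitals of these sites stand, in GRCm38, at chr13:23621782-23621797 (minus strand) for Hist1h1e, chr13:23739512-23739527 (plus) for Hist1h1c, chr13:23570668-23570683 (minus) for Hist1h2ae and chr3:96220418-96220433 (minus) for Hist2h2ac. They stand at chr13:23585531-23585546 (minus) for Hist1h2be, chr13:23745047-23745062 (minus) for Hist1h3c, chr3:96247327-96247342 (plus) for Hist2h3c1 and chr13:23581950-23581965 (plus) for Hist1h4d. For Hist1h4i the site is chr13:22040966-22040981 (minus) and for Hist2h4 chr3:96262939-96262954 (minus). All lie in the 3′ UTR.

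The form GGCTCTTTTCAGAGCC was the most frequent, in 26 of the 46 members. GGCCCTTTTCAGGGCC was found in 7 members and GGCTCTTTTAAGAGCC in 6. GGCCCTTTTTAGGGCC was found in 2 members, Hist1h4i and Hist2h4. For each member the longest coding transcript with the stem-loop was used, or the longest coding transcript where none held it. The annotated transcript ran on for more than 300 bases past the stem-loop in 18 members, among them Hist1h1e (1153 bases), Hist1h1c (840), Hist1h2be (1861) and Hist1h4d (770), and stopped within 60 bases in 22. A gene that also has a shorter annotated form could thus count as long. A 3′ UTR of at most 3 bases was annotated for 15 members, Hist1h1b with 0 bases among them, so for those the search could find no site. The hexamer AATAAA was present in the 3′ UTR of 18 members. It was counted anywhere in the 3′ UTR, so long ones had more room for it. Its share over all genes was not counted, and its use as a polyadenylation signal was not tested. Sequence shared with other annotated genes limits what counts can be given to single genes. In 28 members less than 50% of the 90-base stretches of the transcript were unique to the gene among GENCODE transcripts. Hist2h2aa2, Hist2h3c1 and Hist1h2bq had none that were unique. Which genes share the stretches was not listed. Values of such members are uncertain, since reads may have been dropped or split between the genes that share them. Among the members given with values below, this holds for Hist1h2ad (35.6% unique), Hist1h2ap (7.63%), Hist1h2bf (49.2%), Hist1h3i (27.3%), Hist1h4n (18.8%) and Hist2h3c2 (38.0%). It also holds for Hist1h2ao (7.16%) and Hist1h4m (11.5%), and for Hist2h2aa2, Hist2h3c1 and Hist1h2bq.

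Promoters, taken from RefSeq (GRCm38.p6) as the 250 bases before the annotated start, were matched for 61 members. Motifs were searched on both strands. The CCAAT box (CCAAT) was found in 50 of 61 member promoters and in 33.8% of 32851 promoters of all genes, and TATAAA in 29 and in 12.4%. By class, CCAAT was found in 6 of 6 H1, 17 of 17 H2a, 16 of 16 H2b and 8 of 10 H3 promoters, but in 3 of 12 H4 promoters. The octamer ATTTGCAT was found in 7 H2a and 6 H2b promoters and in none of the H1, H3 and H4 promoters, and in 1.6% of all promoters. These were 10 sites by genome position, 3 of them counted in both classes, since 9 H2a promoters overlap that of an H2b neighbour on the other strand. In all 7 H2a promoters the octamer stood on the strand opposite to the gene, and in all 6 H2b promoters on the strand of the gene. The letters AAACACA, a sequence known from H1 promoters, were found in 5 of 6 H1 promoters and in 6.25% of all. They were also found in 2 of 17 H2a and 2 of 16 H2b promoters, and in none of H3 and H4. Of these 8 sites by genome position, 1 was counted in both H2a and H2b. The promoters of the members with the most UMIs in H1, H2a and H4 are shown from 5′ to 3′ on the gene's strand with these motifs in capitals: Hist1h1b at chr13:21780626-21780875 (minus), Hist1h2ae at chr13:23571221-23571470 (minus) and Hist1h4d at chr13:23581318-23581567 (plus).
Hist1h1b: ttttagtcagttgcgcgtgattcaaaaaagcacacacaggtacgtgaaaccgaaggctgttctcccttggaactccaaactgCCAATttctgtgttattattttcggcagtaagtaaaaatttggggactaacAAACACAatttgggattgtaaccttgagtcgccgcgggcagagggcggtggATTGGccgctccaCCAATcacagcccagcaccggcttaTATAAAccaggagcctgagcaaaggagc
Hist1h2ae: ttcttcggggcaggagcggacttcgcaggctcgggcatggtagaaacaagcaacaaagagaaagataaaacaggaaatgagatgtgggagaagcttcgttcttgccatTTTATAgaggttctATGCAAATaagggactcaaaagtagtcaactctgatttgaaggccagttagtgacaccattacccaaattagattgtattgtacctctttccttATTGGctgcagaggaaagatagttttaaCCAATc
Hist1h4d: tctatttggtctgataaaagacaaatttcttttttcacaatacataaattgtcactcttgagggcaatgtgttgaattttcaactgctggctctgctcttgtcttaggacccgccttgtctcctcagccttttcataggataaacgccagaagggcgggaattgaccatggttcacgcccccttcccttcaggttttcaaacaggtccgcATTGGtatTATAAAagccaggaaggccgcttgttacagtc
The Hist1h1b stretch held TATAAA 28 bases before the annotated start, CCAAT on both strands and the H1 letters, and the Hist1h4d stretch held TATAAA 32 bases before the start and CCAAT on the opposite strand. In the Hist1h2ae stretch CCAAT was on both strands, but TATAAA (142 bases before the start) and the octamer (128 bases) were on the opposite strand only. This stretch overlaps the promoter of the H2b gene Hist1h2bg, which runs the other way and holds the same octamer 59 bases before its start.

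After filtering, 7129 cells were kept, 1307 in the healthy, 2476 in the metformin, 1692 in the disease and 1654 in the disease plus metformin library, with median depths of 1715 to 1951 UMIs per cell. Cells were clustered without the members among the clustering genes, and clusters were named "-like" from marker genes. Of the deposited barcodes, 8 of 8287 occurred in 2 libraries, and among kept cells 4 did. The keratinocyte-like cells numbered 691, 1195, 1045 and 685 in the healthy, metformin, disease, and disease plus metformin libraries, an order kept for lists of 4 values from here on. The share of these cells without any mitochondrial UMI was 45.9%, 48.1%, 30.7% and 59.0%, and a single cluster of deep cells (median 21474 UMIs, 377 cells, led by Ccer2, Grip1 and H19) held 77.2%, 57.5%, 73.8% and 62.4% of their UMIs. Ratios of the summed level in keratinocyte-like cells are given below without that cluster too. Member counts, class levels, single members and gene lists are given only with it.

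The members had 48571 UMIs of 55036171 (0.0883%), and at least 1 was found in 3927 of 7129 cells (55.1%). Few cells held most of them: the 72 cells with the most, 1% of all, had 32.0% of the member UMIs, and the 357 cells of the top 5% had 67.1%. This ranking takes no account of depth, and the share of all UMIs in these cells is not given. No UMI was found for Hist1h2bq and Hist1h4m, 7 members had under 10 UMIs, these 2 included, and 56 had at least 50. The low members included Hist1h1t (5 UMIs), Hist1h2ba (3) and Hist1h2aa (1), genes known from the testis. The others under 10 UMIs were Hist1h2bq, Hist1h4m, Hist1h2ao (3) and Hist2h2aa2 (2). Of their 90-base stretches 0%, 11.5%, 7.16% and 0% were unique. Reads of these genes may have been dropped or split, so their low counts do not show a low level. Hist1h1b, a linker histone, had the most UMIs (7506, or 15.5% of the members' total), followed by Hist1h2bc (4541), Hist1h1e (4321), Hist1h4d (3886) and Hist1h2ae (3617).

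The keratinocyte-like cells held 78.3% of the member UMIs. Their summed level over the 4 libraries was 1528 counts per 1000000 UMIs (CPM), against 904 in pericyte or smooth muscle-like, 872 in leukocyte-like, 712 in vascular endothelial-like, 678 in Schwann or neural-like, 252 in salivary gland-like, 215 in fibroblast-like and 192 in erythroid-like cells. Without the barcode with the most member UMIs in each class, these were 1500.5 in keratinocyte-like cells and 392, 710.1, 360, 553, 244, 207 and 59.0 CPM in the others. Within them, 2 clusters held most. A cluster of 791 cells led by the division genes Hmmr, Nusap1 and Pclaf, and by members, stood at 5911 CPM and held 27.7% of all member UMIs. The deep cluster stood at 1211 CPM and held 41.0%. Clusters of differentiating cells were lower: 518 CPM in the cluster led by Cnfn, Krt4 and Krt13, which mark the outer layers of oral epithelium, and 280 CPM in the one led by Krt6b, Krt16 and Cryba2. With each cell thinned to 1000 UMIs, 40.1% of keratinocyte-like cells (38.2 to 42.1%, n = 2415 cells) had a member UMI, against 23.0% of gland-like cells (n = 1110) and 3.0% of erythroid-like cells (0.6 to 8.5%, n = 100). The unthinned shares were 52.9%, 66.5% and 30.0%, at median depths of 1584, 8300 and 11951 UMIs. Red blood cells have shed their nuclei, but the erythroid-like barcodes include 1 rich in members, and no level of free RNA was measured.

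In the small cell classes single barcodes decided the level. One disease cell held 71.6% of the 934 member UMIs of the pericyte or smooth muscle-like cells of its library: the class stood at 1745 CPM with it and at 553 CPM without it, beside 286, 337 and 216 CPM in the healthy, metformin, and disease plus metformin libraries. In vascular endothelial-like cells of the metformin library, 1 cell held 76.3%, and the level was 1381 CPM with it and 396 CPM without it. In erythroid-like cells of the disease plus metformin library, 1 barcode held 97.0% of 167 UMIs, with 1355 CPM and 44.2 CPM. The leukocyte-like cells of the healthy library were at 2535 CPM, and at 1638 CPM without their top cell, from 22 cells in all. No comparison between libraries was made for these classes, which had under 50 cells in at least 1 library.

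**Figure D1:**
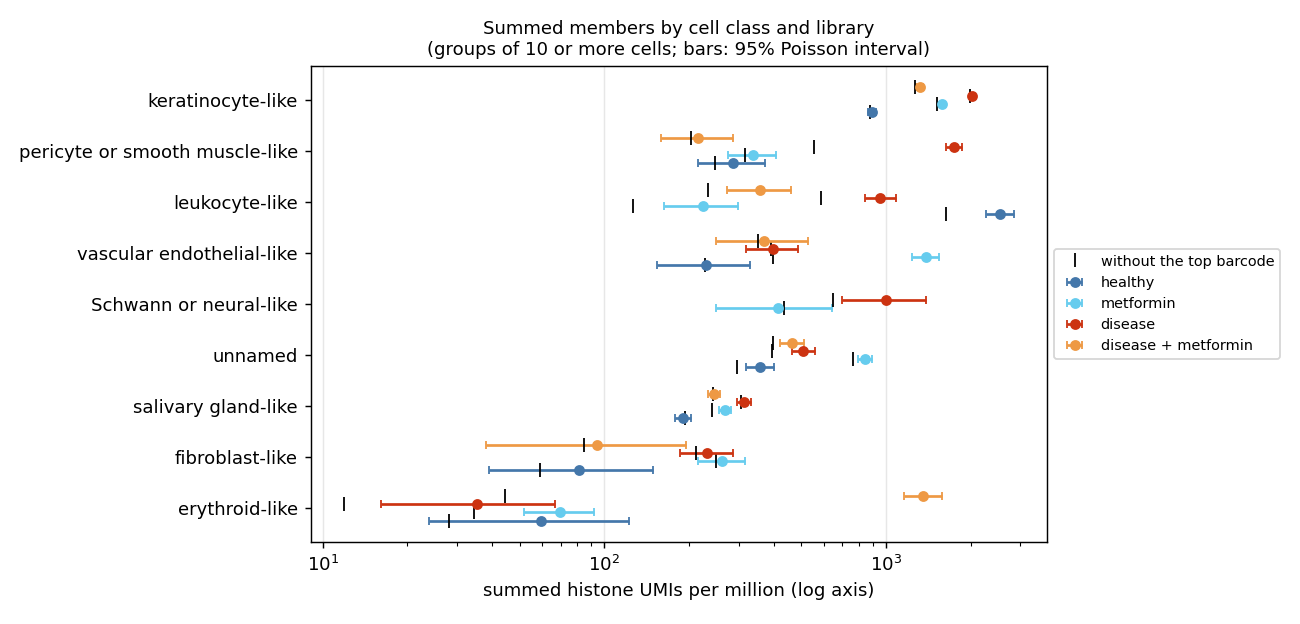
Summed member level in CPM (log axis) by cell class and library, for groups of 10 or more cells, with 95% Poisson intervals of counting error; black ticks give the level without the barcode that holds the most. Keratinocyte-like cells lie between 893 and 2024 CPM with ticks close to their points, while the high points of pericyte, endothelial and erythroid-like cells fall once 1 barcode is left out.

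Among keratinocyte-like cells the members were higher in cells that held more RNA of S-phase genes than in the other cells. The S-phase list held 46 genes of DNA replication and no member, and a cell was counted as S-list when at least 2 UMIs of the list remained after thinning to 1000 UMIs. In the healthy, metformin, disease, and disease plus metformin libraries the summed members were at 3890, 6523, 7872 and 7388 CPM in S-list cells and at 714, 1441, 1287 and 944 CPM in the others. The log2 ratios were 2.45, 2.18, 2.61 and 2.97, a mean of 2.55 ± 0.33 (SD, n = 4 libraries), higher in 4 of 4 libraries. An exact sign-flip permutation test over the libraries, two-sided, gave the smallest p that 4 libraries allow, as 2 of 16 sign patterns were as large, so it could not reach 0.05. S-list cells were 23.1%, 22.4%, 19.9% and 17.7% of the cells and held 62.1%, 56.6%, 60.3% and 62.7% of the thinned member UMIs. Cells near the limit were many: 78, 176, 164 and 103 cells had 1 UMI of the list, and 44, 69, 58 and 40 had 2. Cells below 1000 UMIs were left out, 259, 333, 376 and 233 of them.

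Of 33 members with at least 20 thinned UMIs over the 4 libraries, 31 were at least 1.5-fold higher in S-list cells and 1 was at least 1.5-fold lower, with a median log2 ratio of 2.43. Over all 6912 genes measured the same way, 24.3% were higher and 11.9% lower, with a median of 0.17, and the 34 other members had too few UMIs. Hist1h1a, a linker histone, was at 111 CPM in S-list and 7.86 CPM in other cells (log2 3.82, 2.97 to 4.74). Hist1h1b was at 1304 and 166 CPM (log2 2.97), Hist1h2ap at 211 and 27.8 (2.93), Hist1h3c at 324 and 51.9 (2.64) and Hist1h4d at 749 and 150 (2.32). The H1 gene Hist1h1c had the ratio 1.96 (140 and 36.1 CPM). Hist1h2bc went the other way, with 31.6 CPM in S-list and 65.5 CPM in other cells (log2 -1.05, -1.90 to -0.29), lower in 4 of 4 libraries. Hist1h4i was at 13.8 and 12.6 CPM (log2 0.14, -1.32 to 1.40), an interval that holds 0.

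A list of 42 mitotic genes set the same cells further apart. Cells with at least 2 UMIs of both lists had the highest member levels, 4868, 8084, 9104 and 9190 CPM, and were 15.7%, 15.2%, 15.8% and 13.9% of the cells. Cells with the mitotic list alone were at 2092, 3867, 3427 and 2480 CPM. Cells with the S-phase list alone were lower in each library, at 1813, 3226, 3037 and 706 CPM, the last from 12 UMIs in 17 cells. The counting intervals of these states overlapped in all but the disease plus metformin library. Cells with neither were at 305, 384, 401 and 379 CPM, and in each library these were the lowest. Of the cells with both lists, 80.9%, 81.7%, 89.6% and 88.9% had a member UMI, against 21.9%, 23.8%, 24.8% and 21.3% of those with neither.

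**Figure D2:**
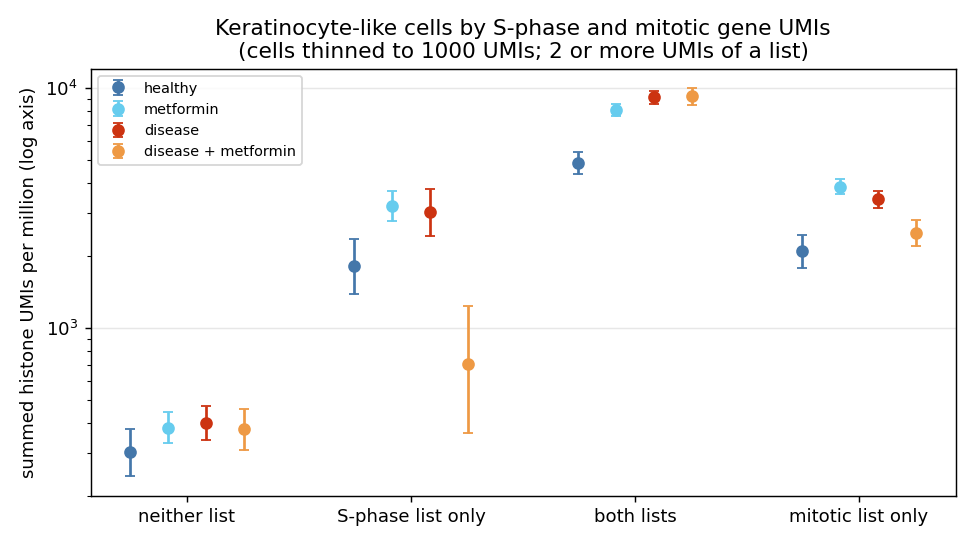
Summed member level in CPM (log axis) in keratinocyte-like cells thinned to 1000 UMIs, by whether they held 2 or more UMIs of the S-phase list, the mitotic list, both or neither, with 95% Poisson intervals. Cells with both lists lie between 4868 and 9190 CPM and cells with neither between 305 and 401 CPM, and within the cells with both lists the healthy library is the lowest.

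Gland-like cells had a different make-up. The H2b class was 45.4%, 40.6%, 50.7% and 42.1% of their member UMIs, against 15.3%, 13.5%, 14.2% and 15.6% in keratinocyte-like cells, and Hist1h2bc alone was 37.7% of them (4.65% in keratinocyte-like cells). Hist1h2bc was at 77.9, 87.9, 136 and 89.4 CPM in gland-like and at 58.8, 60.4, 92.2 and 78.7 CPM in keratinocyte-like cells, higher in gland-like cells in each library. Of 49 members measured in each library (10 or more UMIs over both classes), 42 were at least 1.5-fold lower in gland-like cells in all 4 libraries and 2 were at least 1.5-fold higher, with a median mean log2 ratio of -3.30. Over all 12173 genes, 30.0% were lower, 18.3% were higher and the median was -0.36. Among these 49, 16 had 0 UMIs in gland-like cells of at least 1 library, and a 0 was set to 3 UMIs, so their ratios are understated.

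Hist1h1b and Hist1h3c, both raised in S-list cells (log2 2.97 and 2.64) though not the highest there, were low in gland-like cells. Hist1h1b was at 1.07, 9.94, 0 and 2.82 CPM there and at 185, 270, 370 and 192 CPM in keratinocyte-like cells. Hist1h3c was at 0, 3.94, 0 and 0.149 CPM, from 0, 23, 0 and 1 UMIs, and at 16.7, 60.6, 94.5 and 56.1 CPM in keratinocyte-like cells. Of 4 libraries, metformin had the highest gland-like value of both genes. The gland-like clusters were not shared evenly: the deepest (median 35289 UMIs) had 16, 36, 0 and 10 cells. Without it, a choice made after seeing the data, Hist1h1b was at 1.26, 7.55, 0 and 2.88 CPM and Hist1h3c at 0, 4.35, 0 and 0.152 CPM, so metformin was still the highest. The mitotic gene Top2a, an enzyme that untangles DNA, moved with them: it was at 0.64, 31.9, 1.08 and 6.68 CPM in gland-like cells, and its part in the result was not tested. The 2 higher members were Hist2h3c1 (6.21, 6.68, 15.9 and 8.47 CPM in gland-like, 1.95, 1.96, 2.03 and 1.91 in keratinocyte-like cells) and its near-identical copy Hist2h3c2 (2.14, 3.09, 3.24 and 2.08 against 0.867, 0.588, 0.313 and 0.272), which lie on chromosome 3. Hist2h4, from the same gene cluster, was at 5.99, 4.11, 10.5 and 5.94 CPM in gland-like and at 2.39, 4.41, 4.53 and 2.99 CPM in keratinocyte-like cells, higher in 3 of 4 libraries and not in metformin.

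The median difference between the classes was smallest for members with a long annotated end. The median gland-like to keratinocyte-like log2 ratio was -1.92 (-4.25 to 2.50) for the 17 measured members with more than 300 bases after the stem-loop, -3.50 (-5.84 to -1.43) for 14 with at most 60 bases, -4.57 for 4 in between and -3.89 (-6.78 to 0.42) for 14 without an annotated stem-loop. The ranges overlap. The annotated end is that of the longest transcript, chosen as described above, and is not a measure of where the captured RNA ended. The highest value of the last set was that of Hist1h2bc, whose annotated 3′ UTR of 742 bases held no stem-loop letters and 1 AATAAA. Across the 32 members measured in both contrasts, those most raised in S-list cells tended to be the lowest in gland-like cells (Pearson r -0.66, Spearman rho -0.64). This is a description only: the points share cells and libraries, and Hist1h2bc lies far from the rest.

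**Figure D3:**
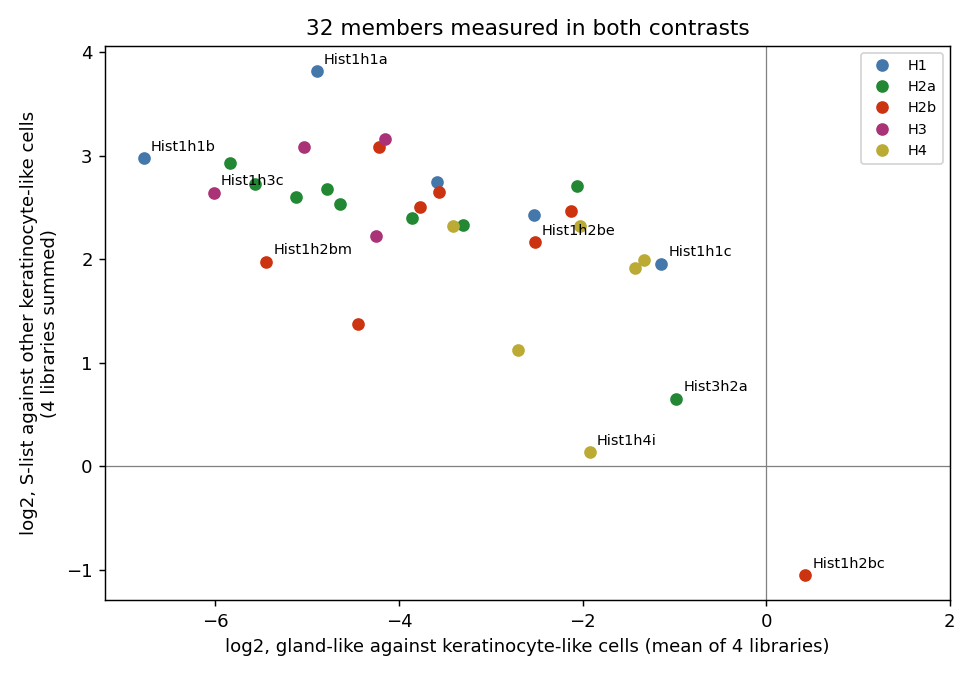
Each point is 1 of 32 members, coloured by histone class: the x axis gives the mean log2 ratio of gland-like to keratinocyte-like cells over 4 libraries, the y axis the log2 ratio of S-list to other keratinocyte-like cells with the libraries summed. Hist1h1b and Hist1h3c lie at the far left, at 2.97 and 2.64 on the y axis, and Hist1h2bc is alone at the lower right (0.42 and -1.05).

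The cluster with the highest summed level was one of 9 cells from all 4 libraries, led by Pf4, Ppbp, Gp9 and Clec1b, genes known from platelets and megakaryocytes. These leading genes go against the erythroid markers also found there, and the cluster stays unnamed. It held 381 member UMIs (6209 CPM). Its place rests on 1 cell: without its top cell it was at 5067 CPM, below the dividing cluster at 5911 CPM. Of these UMIs, 50.1% were of Hist1h2bc (3113 CPM, 2687 to 3587), 36.2% of Hist1h4i (2249 CPM, 1890 to 2657), 7.35% of Hist1h1c and 2.62% of Hist1h2be. All 9 cells held UMIs of both Hist1h2bc (5 to 67) and Hist1h4i (2 to 40). Hist1h1b, the leading member in keratinocyte-like cells, had 1 UMI in the cluster. By comparison Hist1h4i was at 21.9 CPM in keratinocyte-like and 6.5 CPM in gland-like cells. In the 31 Schwann or neural-like cells Hist1h2bc was at 339 CPM (34 UMIs in 15 cells), and no UMI of Hist1h4i or Hist1h1b was found.

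Between libraries, keratinocyte-like cells of healthy gingiva had the lowest member levels. The sum was 893 CPM (865 to 920) in healthy, 1581 (1556 to 1605) in metformin, 2024 (1989 to 2059) in disease and 1316 (1279 to 1353) in disease plus metformin. Of 51 members with at least 50 UMIs in these cells, 45 were lowest in the healthy library, and 33 were highest in disease, 13 in metformin, 5 in disease plus metformin and 0 in healthy. The order of libraries was not counted over all genes, so these member counts have no background beside them. The intervals of the sums do not overlap, but they cover counting error alone.

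Each class showed this order. H1 was at 333, 490, 694 and 407 CPM, H2a at 233, 462, 498 and 366, and H2b at 137, 214, 287 and 205. H3 was at 63.8, 158, 215 and 126 CPM and H4 at 126, 257, 330 and 211. In gland-like cells H2b was highest in disease (86.2, 109, 159 and 104 CPM), H2a was highest in metformin (15.8, 39.4, 18.9 and 21.4 CPM), and H1 ran from 39.8 to 52.4 CPM.

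**Figure D4:**
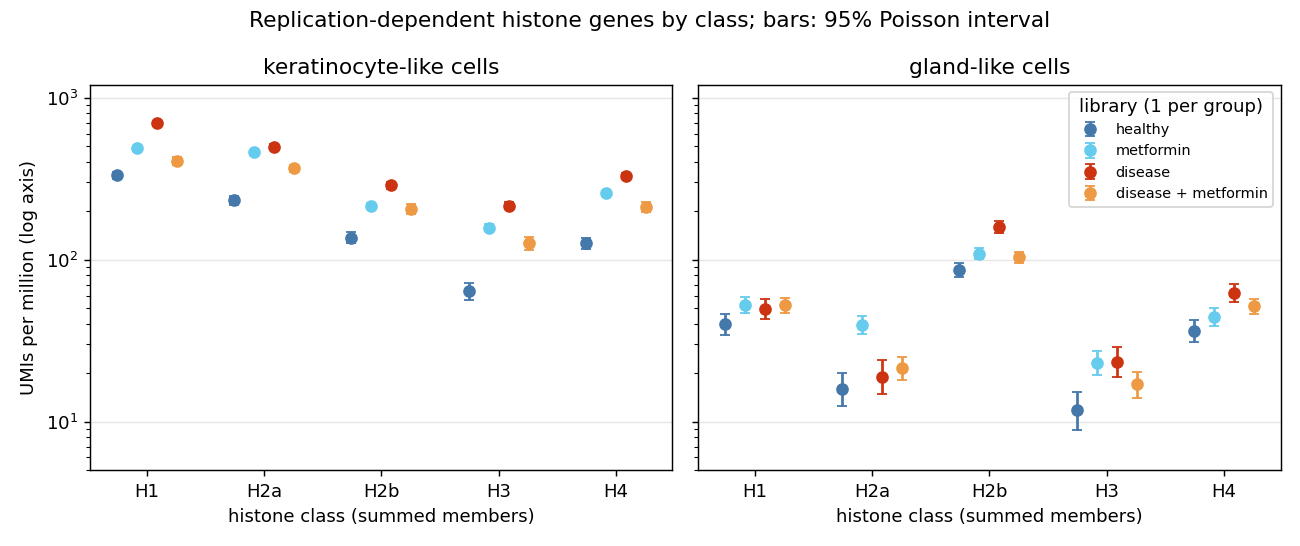
CPM (log axis) summed by histone class in keratinocyte-like (left) and gland-like (right) cells, 1 point per library with its 95% Poisson interval. On the left every class is lowest in healthy and highest in disease, and on the right H2b is the highest class, between 86.2 and 159 CPM.

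Disease against healthy. The summed level in keratinocyte-like cells was 2.27-fold higher in disease (log2 1.18, 1.13 to 1.23), with H3 the most apart (log2 1.76) and H1 the least (1.06). Of 53 members with at least 20 UMIs, 45 were at least 1.5-fold higher and 1 lower. Of 11664 genes, 7.35% were higher and 6.20% lower. The median log2 ratio was 1.22 for the members and 0.02 for all genes. Hist1h3c was at 94.5 CPM in disease and 16.7 in healthy gingiva (log2 2.50, 2.16 to 2.86). Hist1h2ak, an H2a gene, was at 10.9 and 1.73 CPM (log2 2.66, 1.60 to 3.92), the H2b gene Hist1h2bf at 6.41 and 0.65 (log2 3.30, 1.65 to 5.64, from 41 and 3 UMIs) and Hist1h1d at 59.4 and 16.5 (log2 1.85). Hist1h4d was at 194 and 62.0 CPM (log2 1.64) and Hist1h2ae at 170 and 57.0 (log2 1.57). The 1 lower member was Hist1h2ad with 11 and 16 UMIs (log2 -1.01, -2.27 to 0.18), and Hist3h2a differed least on the low side (log2 -0.10, -0.67 to 0.48).

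Within the keratinocyte-like clusters with at least 50 cells in both libraries, the sum was higher in disease in 4 of 5. The log2 ratio was 1.40 in the deep cluster (1774 against 670 CPM), 0.67 in the dividing cluster (7480 against 4707 CPM), 1.22 in the cluster led by Krt15 and Krt76 and 0.50 in the one led by Gpha2 and Krt15. In the cluster led by Cnfn, Krt4 and Krt13 it was -0.31 (-0.67 to 0.06). Without the deep cluster the log2 ratio over all keratinocyte-like cells was 0.73. Over all kept cells the sums were 1258 and 527 CPM (log2 1.25, 1.21 to 1.30), and 46 of 56 members were higher and 3 lower, beside 15.3% and 6.31% of all genes.

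Metformin against healthy. The summed level in keratinocyte-like cells was 1.77-fold higher with metformin (log2 0.82, 0.77 to 0.87). Of 55 members measured, 40 were at least 1.5-fold higher and 0 lower, while 5.97% of 12039 genes were higher and 21.3% lower. The medians were 1.03 for the members and -0.21 for all genes, and scaling by the median ratio of genes in place of total UMIs adds 0.23 to each log2 ratio. Hist1h3c again led (60.6 against 16.7 CPM, log2 1.86, 1.52 to 2.22), with Hist1h2ae at 149 and 57.0 CPM (log2 1.38), Hist1h2ak at 7.93 and 1.73 (2.19), Hist1h4h at 35.8 and 13.0 (1.46) and Hist1h4n at 15.4 and 5.42. Hist1h2bc was at 60.4 and 58.8 CPM (log2 0.04, -0.17 to 0.25). By cluster the log2 ratio was 0.85 in the deep cluster, 0.35 in the dividing cluster, 0.27 in the clusters led by Krt15 with Krt76 and by Cnfn, and 0.17 in the one led by Gpha2. In the last 3 of these clusters the counting interval held 0 (-0.051 to 0.59, -0.016 to 0.58 and -0.048 to 0.39). Without the deep cluster it was 0.34 over all keratinocyte-like cells. Over all kept cells the sums were 1008 and 527 CPM (log2 0.93), with 42 of 58 members higher and 2 lower, beside 9.59% and 11.0% of all genes.

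Disease plus metformin against disease. The summed level in keratinocyte-like cells was 1.54-fold lower with metformin (log2 -0.62, -0.67 to -0.57). Of 53 members measured, 26 were at least 1.5-fold lower and 0 higher, while 13.4% of 11495 genes were lower and 4.11% higher. With median ratio scaling, which adds 0.12 to each log2 ratio, 24 were lower and 3 higher, beside 9.49% and 5.79% of all genes. The medians were -0.58 for the members and -0.13 for all genes. Hist1h2ak was at 2.99 CPM in disease plus metformin and 10.9 in disease (log2 -1.87, -2.94 to -0.94), Hist1h1b at 192 and 370 (-0.95, -1.07 to -0.83), Hist1h4d at 102 and 194 (-0.93) and Hist1h3i at 12.3 and 27.5 (-1.17). Hist1h2ap was at 73.8 and 55.8 CPM (log2 0.40, 0.17 to 0.64) and Hist1h4i at 32.7 and 23.6 (0.47, 0.11 to 0.82). The log2 ratio of the sum was -0.65 in the dividing cluster (4765 against 7480 CPM), -0.51 and -0.32 in the clusters led by Krt76 and Gpha2 and -1.09 in the one led by Cnfn, while the deep cluster had 47 cells in disease plus metformin. Over all kept cells the sums were 603 and 1258 CPM (log2 -1.06), with 43 of 57 members lower and 0 higher, beside 24.7% and 8.38% of all genes.

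Disease plus metformin against metformin. The summed level was 1.20-fold lower in keratinocyte-like cells of the diseased gingiva (log2 -0.26, -0.31 to -0.22), and -0.051 without the deep cluster. The clusters did not share a direction: the log2 ratio was 0.44 (0.19 to 0.69) in the cluster led by Krt15 and Krt76, 0.0076 (-0.16 to 0.18) in the one led by Gpha2, -0.33 (-0.40 to -0.26) in the dividing cluster and -1.67 (-2.20 to -1.18) in the one led by Cnfn. Of 55 members measured, 14 were at least 1.5-fold lower and 3 higher, beside 6.99% and 9.09% of 11911 genes. Median ratio scaling, which adds -0.13 to each log2 ratio, gave 24 lower and 1 higher, beside 9.50% and 5.69% of all genes. The medians were -0.36 and 0.09. Hist1h2ak (2.99 and 7.93 CPM, log2 -1.41) and Hist1h4h (20.4 and 35.8 CPM, log2 -0.81) were on the low side, and Hist1h4i (32.7 and 20.2 CPM, log2 0.70, 0.36 to 1.03) and Hist1h2bc (78.7 and 60.4 CPM, log2 0.38) on the high side. H2b had a log2 ratio of -0.06 (-0.18 to 0.06), an interval that holds 0. Over all kept cells the log2 ratio was -0.74, with 42 of 58 members lower and 1 higher, beside 15.5% and 11.6% of all genes. The 4 comparisons share libraries and are not independent of each other.

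**Figure D5:**
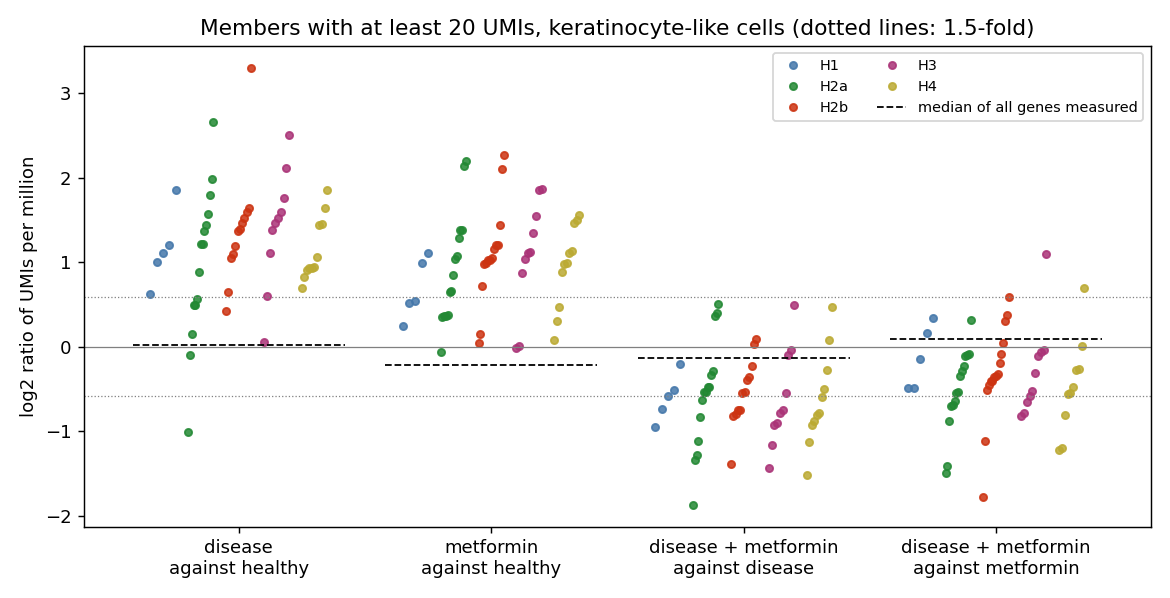
Log2 ratios of CPM in keratinocyte-like cells for each member with at least 20 UMIs over the 2 libraries, coloured by histone class, in the 4 comparisons; dotted lines mark 1.5-fold and dashed lines the median of all genes. Most points lie above the dashed line in the comparisons with healthy gingiva and below it in those of disease plus metformin.

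Genes that work with the members did not all have the same order. In keratinocyte-like cells the S-phase list, which includes Slbp, stood at 1221, 1139, 1188 and 953 CPM. In disease against healthy, 1 of its 46 genes was at least 1.5-fold higher and 5 were lower (median log2 -0.08), and in disease plus metformin against disease 1 was higher and 12 lower (-0.36). Pcna, the replication clamp, was at 72.0, 73.0, 61.4 and 62.6 CPM and Tyms, an enzyme of thymidylate synthesis, at 74.8, 97.7, 92.0 and 79.2. The mitotic list stood at 3245, 3563, 4998 and 3530 CPM: in disease against healthy 22 of 42 were higher and 0 lower (0.59), and in disease plus metformin against disease 18 were lower and 0 higher (-0.52). Ube2c, a mitotic ubiquitin-conjugating enzyme, was at 223, 384, 417 and 359 CPM, and Cenpf, a kinetochore protein, at 233, 240, 418 and 308. Per UMI of the S-phase list, the members had 0.731, 1.39, 1.70 and 1.38 UMIs, lowest in healthy gingiva.

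The list of histone mRNA processing and turnover genes stood at 1022, 795, 966 and 873 CPM, with 1 of 29 measured genes higher and 3 lower in disease. Lsm4, part of a ring that binds the end of histone mRNA during its decay, was at 200, 164, 168 and 196 CPM. Chaperones, which carry histones to DNA, had 0 of 29 genes higher and 1 lower in disease, and Npm1 was at 914, 984, 922 and 1072 CPM. Replication-independent histone genes, whose RNA is also made outside S phase and mostly has a poly(A) tail, stood at 4062, 4630, 4872 and 4458 CPM. In disease against healthy, 1 of 11 was higher and 0 lower. H3f3b was at 1180, 1355, 1445 and 1326 CPM and H2afz at 910, 1080, 1161 and 1037, which are ratios within 1.5-fold.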

How the data were processed

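Per the submitters' processing notes, the authors counted 10x Genomics reads of gingival cells with bcl2fastq and Cell Ranger 7.0.1 on mm10. The deposited values were counts, whole UMIs per gene and called barcode, not normalized (12507787 to 22333858 UMIs per library; 1 library for each of 4 groups). Whether introns were counted is not stated in the labels. The members and gene lists were chosen with earlier results of these data known.

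The 40 symbols carried by several gene entries had their entries added up. Cells needed 200 genes or more, with mitochondrial UMIs of 20% or less. Scrublet called 5 of 7134 cells as doublets (0.0701%), too few for a working caller, so doublets remain. Using scanpy 1.11.5, 2000 variable genes without the members, 30 components, 15 neighbours and Leiden resolution 1 gave the clusters. A class name needed 3 raised markers and 25% of its list, and no other of the 12 lists above 70% of its score. A platelet-gene guard on the erythroid name was added after seeing the data.

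Counts were summed per library and class and given as counts per 1000000 UMIs (CPM) with exact Poisson 95% intervals; ratios have conditional exact binomial intervals, and a count of 0 was set to 3. A member counted as apart at 1.5-fold with at least 20 UMIs over the 2 libraries, beside all genes treated alike. The S-list contrast used cells thinned to 1000 UMIs. Members named are the 5 with the most UMIs in each class and, in each comparison, the 5 highest and lowest by the interval bound nearest 0 with a selection printed; of each gene list up to 4. Transcript features are from GENCODE M21, whose GRCm38 assembly is that of mm10, but the gene models may differ from the authors'. Alternatives covered cell filters, clustering, scaling, depth and thresholds. The interval procedure was tested on simulated data.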

Additional observations from a re-analysis of the deposited data

Results flagged for a closer look

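The difference between libraries with and without metformin, called the metformin effect here, had opposite signs in healthy and in diseased gingiva. Over all kept cells and in keratinocyte-like cells, the member level was higher with metformin in the healthy pair of libraries. It was lower with metformin in the diseased pair. With 1 library in a group this difference was not tested, and the 2 effects come from 4 libraries that each differ in depth and make-up. The effect in disease minus that in healthy gingiva (log2) was -2.00 over all members and all cells, from 0.93 in healthy and -1.06 in diseased gingiva. By class over all cells it was -2.10 for H1, -2.32 for H2a, -1.13 for H2b, -2.72 for H3 and -2.01 for H4. In keratinocyte-like cells it was -1.45 over all members, from 0.82 and -0.62. By class there it was -1.33 for H1, -1.43 for H2a, -1.13 for H2b, -2.08 for H3 and -1.67 for H4. Without the deep cluster both effects in keratinocyte-like cells were smaller and kept their signs, with values in the next section. By cluster, the effect in healthy gingiva was 0.85 in the deep and 0.35 in the dividing cluster. It was 0.27 in those led by Krt15 with Krt76 and by Cnfn and 0.17 in the one led by Gpha2, each with an interval that held 0. In gland-like cells the effects on the sum were 0.50 in healthy and -0.35 in diseased gingiva. By class in gland-like cells, H1 had 0.40 and 0.08 (-0.18 to 0.34) and H2a had 1.32 and 0.18 (-0.24 to 0.61). The intervals given, those in diseased gingiva, held 0, so whether these 2 classes kept their sign is not settled. The share of keratinocyte-like cells without a mitochondrial UMI, 45.9% and 48.1% in the healthy pair and 30.7% and 59.0% in the diseased pair, moved with the libraries, and its part in the result was not tested.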

How the results depend on the processing

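No ratio of the summed level changed sign under the alternatives run. Changes are log2 ratios in the order disease against healthy, metformin against healthy, disease plus metformin against disease, and disease plus metformin against metformin, with those that moved beyond their counting interval printed. With every cell weighted equally they were 0.86, 0.71 and -0.86 over all cells (the first to the third), and 0.78, 0.77, -0.56 and -0.55 in keratinocyte-like cells. With median ratio scaling they were 1.11, 1.01 and -0.86 over all cells (the first to the third), and 1.05, -0.50 and -0.39 in keratinocyte-like cells (the second to the fourth). Only barcodes with Malat1 and mitochondrial UMIs gave 1.37, -1.31 and -0.85 (the first, the third and the fourth), and 1.36, -0.93 and -0.43 in keratinocyte-like cells. The stricter cell filter gave -1.10 for the third over all cells and 1.23 for the first in keratinocyte-like cells. All deposited barcodes gave 1.30 and -0.66 for the first and the fourth. Without the member with the most UMIs, Hist1h1b, the third and the fourth were -0.95 and -0.67 over all cells, and in keratinocyte-like cells the second and the third were 0.89 and -0.56. Without the deep keratinocyte-like cluster, an alternative chosen after seeing the data, they were 0.73, 0.34, -0.44 and -0.051. Coarser, finer or marker-based cell classes moved none.

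Among member counts above 3, those that moved by over 1.5 times were the following. At a fold of 2, 26 were lower in the fourth over all cells, and 9 and 6 in the third and the fourth in keratinocyte-like cells. For the fourth in keratinocyte-like cells, where 14 were lower, 24 were lower with median ratio scaling and 26 with Malat1 and mitochondrial UMIs. Counts of 3 or fewer also moved. For the fourth there, 1 was higher with median ratio scaling and 1 at a fold of 2. For the third there, 3 were higher with median ratio scaling and 1 with Malat1 and mitochondrial UMIs. In disease against healthy the lower members over all cells were 0 at 50 UMIs and 1 at a fold of 2, and in keratinocyte-like cells 0 at 50 UMIs and 0 with Malat1 and mitochondrial UMIs. In metformin against healthy over all cells they were 1 at 50 UMIs, 0 at a fold of 2 and 1 with median ratio scaling, and 0 were higher at a fold of 2 in the fourth. Shares of all genes at a fold of 2, at 50 UMIs and with Malat1 and mitochondrial UMIs are not given. These recounts therefore show only how the member counts depend on the setting. The causes were not tested. The S-list log2 ratio ran from 2.41 to 2.68 leaving out 1 library at a time, and from 2.03 to 3.20 over the other settings. No paired analysis was possible because each group has 1 library. Members under 20 UMIs could not be compared at this depth.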

Other observations

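An unnamed cluster of 1059 cells led by the salivary genes Bpifa2, Dcpp2 and Dcpp3 had a low median depth (937 UMIs) and came unequally from the libraries, 107 cells from healthy, 672 from metformin, 6 from disease and 274 from the combined group. Its member level was 131 CPM in healthy, 910 CPM in metformin and 331 CPM in disease plus metformin cells. In metformin the classes H1 (266 CPM) and H2a (237 CPM) were above H2b (146 CPM), the order of keratinocyte-like cells, while in healthy cells H2b was the highest at 42.5 CPM. Over the cluster Hist1h1b and Hist1h4d were both at 66.7 CPM and Hist1h2bc at 53.6 CPM.

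In the cluster led by Ltf, Wfdc18 and Lyz2, 157 cells, the H2b class of the healthy library was at 465 CPM of 678 in all, and 1 barcode held 61.4% of these member UMIs.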
